A study of Mus musculus with 12 samples.

Results

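The retinoblastoma pocket proteins and the E2F transcription factors were examined in mouse lung tumors and normal mouse lung by poly-A RNA sequencing. The family was taken as 10 genes by symbol: the pocket protein genes Rb1, Rbl1 and Rbl2, and the factor genes E2f1, E2f2, E2f3, E2f4, E2f5, E2f7 and E2f8. All 10 were present among the 30399 genes of the deposited table, and all 10 passed the filter on low values that left 23674 genes for testing. The series holds 5 samples labelled normal lung and 7 labelled tumor, from a study of lung cancer models made in mice by nonviral CRISPR/Cas9 mutagenesis, in which a nuclease cuts chosen genes and faulty repair disables them. As far as is known of the study, Rb1 and Rbl1 were among the genes it set out to disrupt, but the labels name neither strain, age, genotype, treatment nor the genes cut in any sample, for tumors or for normal lung.

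The tumor titles carry a number that may be shared. Tumors 3 and 4 carry 159, tumors 5, 6 and 7 carry 201, tumor 1 carries 153 and tumor 2 carries 156, and the titles of tumors 1 and 7 hold the Spanish word for trachea. Nothing states that samples came from separate animals, so p-values measure the spread between these samples, some of which may share an animal.

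Pocket proteins hold E2F factors at the promoters of cell cycle genes and silence them until cyclin-dependent kinases phosphorylate the pocket protein and release the factor. The protein of Rb1 prefers the activating factors E2F1, E2F2 and E2F3, while those of Rbl1 (p107) and Rbl2 (p130) bind mainly E2F4 and E2F5, with which they repress. E2F7 and E2F8 are atypical repressors that bind neither pocket proteins nor the DP partner proteins, and their genes, like Rbl1, E2f1, E2f2 and E2f3, are themselves known E2F targets. Loss of RB1 function is a hallmark of small cell lung carcinoma, a neuroendocrine tumor.

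Each value is a normalized read count, the reads of a gene divided by a size factor for its sample, so values of a gene compare across samples but not between genes of different length. Recovered depth was 11126432 to 17032234 reads per normal lung and 13093843 to 24217633 per tumor. The fewest reads behind any value of the family were the 10 reads of E2f7 in normal lung 4, above the floor of 3 reads, and every other member had at least 28 in each sample. Each marker of lung epithelium (8 of 8 genes), endothelium (6 of 6) and leukocytes (5 of 5) was lower in tumor, and each neuroendocrine marker (8 of 8) was higher. Summed normalized counts of the lung epithelium list lay between 284415 and 509724 in normal lung and between 481 and 3216 in tumors, those of the endothelium list between 61763 and 71455 and between 2409 and 7380, and those of the leukocyte list between 81901 and 161759 and between 321 and 10717. Lyz2 alone had 78689 to 157579 in normal lung and so made up most of the leukocyte sum. Only 2 of the 5 leukocyte genes, Lyz2 and Cd79a, had every tumor below every normal lung. In tumor 7 Ptprc (3291) lay above the 1988 to 3120 of normal lungs, and Cd3e (248) and Cd68 (1419) lay within the range of normal lungs. The neuroendocrine sum lay between 266 and 339 in normal lung and between 28857 and 114484 in tumors. Of the fibroblast and smooth muscle list 3 of 6 genes were lower, and the sums overlapped, at 10811 to 21193 and 2775 to 26963. Of the erythroid list 2 of 3 genes were lower, with sums of 6333 to 140901 and 77.2 to 9604. No marker was at 0 throughout a group. The samples thus differ in markers of cell types. In bulk tissue fewer cells of a type and less RNA per cell cannot be told apart. The part of cell makeup in the changes below was not tested. Y-linked transcripts were also uneven, with a mean log2 value above 5 in 4 of 5 normal lungs and 1 of 7 tumors, and adding that value to the fit left the number of higher members at 7.

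Rb1, Rbl1 and the activating and atypical E2F genes were higher in tumor, while Rbl2 and E2f4 did not pass the test and E2f5 passed narrowly in the lower direction. By limma on log2(value + 1), with p adjusted over all 23674 genes and a gene called at an adjusted p under 0.05, 7 of the 10 genes were higher in tumor, 1 was lower and 2 were not called. Over all tested genes 31.4% were called higher and 30.1% lower, so a call alone is common in this comparison. In the same 7 genes every tumor lay above every normal lung, which held for 20.1% of all tested genes. The median log2 fold change of the 10 genes was 1.72, against 0.04 over all tested genes.

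**Figure D1:**
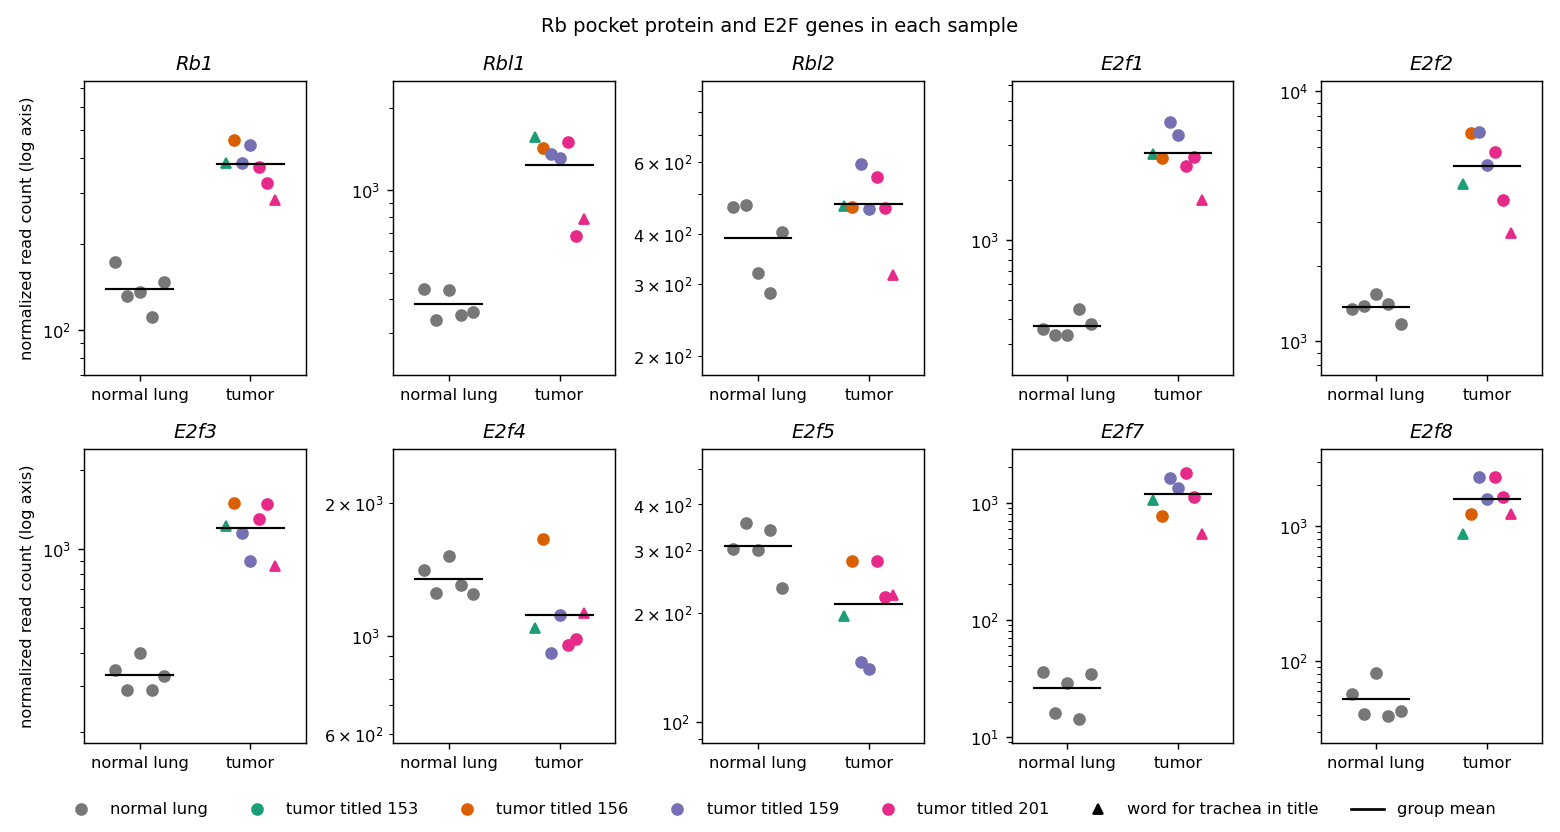
Normalized read counts (vertical axis, logarithmic) of the 10 genes in 5 normal lungs and 7 tumors, 1 point per sample, colored by the number in the tumor title, with triangles for titles holding the word for trachea and lines at group means. Tumor points lie wholly above normal lung for Rb1, Rbl1, E2f1, E2f2, E2f3, E2f7 and E2f8 and overlap it for Rbl2, E2f4 and E2f5.

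Rb1, which encodes the founding pocket protein, showed 173, 131, 136, 111 and 147 normalized counts across normal lungs 1 to 5. Across tumors 1 to 7 it reached 384, 462, 383, 441, 371, 327 and 286. The lowest tumor, tumor 7, thus stood above the highest normal lung, and no tumor showed a drop in the Rb1 message. The log2 fold change was 1.43 (SE 0.18, adjusted p = 1.28e-05), or 2.71-fold by the ratio of group means. A gene-level count does not tell an intact transcript from 1 with a small insertion or deletion, so these values do not check whether Rb1 or Rbl1 was disrupted. In the GENCODE M21 annotation 488 bases of Rb1 exon sequence (8.11% of its exon length) are shared with Rcbtb2 and 408 with Lpar6 (not analysed here), both on the opposite strand, and use of the strand in counting is not given in the sources used here. Rcbtb2 itself had 238 to 305 normalized counts in normal lung and 210 to 434 in tumors and was not called (0.20, adjusted p = 0.438).

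Rbl1 (p107), the pocket protein gene that cycling cells induce, showed 437, 337, 433, 350 and 360 normalized counts across normal lungs 1 to 5 and 1569, 1434, 1358, 1309, 1501, 683 and 787 across tumors 1 to 7. Tumors 6 and 7 were the low tumors, yet both exceeded every normal lung. Its log2 fold change was 1.63 (SE 0.22, adjusted p = 2.92e-05).

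Rbl2 (p130), the pocket protein most abundant in resting cells, showed 467, 471, 320, 286 and 404 normalized counts across normal lungs 1 to 5 and 468, 466, 595, 461, 553, 462 and 316 across tumors 1 to 7. The groups overlapped, with tumor 7 near the lowest normal lungs. The log2 fold change of 0.29 (SE 0.19, 95% confidence interval -0.12 to 0.70) did not pass the threshold (adjusted p = 0.203), and it did when all columns were scaled to the same total (0.49, adjusted p = 0.0361), a scaling that moved the median change of all genes from 0.04 to 0.24. On the opposite strand Rbl2 shares 892 exon bases with Gm45464 (not analysed here) and 693 with Aktip. Aktip was lower in tumor (-1.05, adjusted p = 4.32e-04).

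The pocket protein genes thus changed unequally, which their ratios within each sample show free of any scaling between samples. The log2 ratio of Rbl2 to Rb1 was 1.43, 1.84, 1.23, 1.35 and 1.45 across normal lungs 1 to 5 and 0.29, 0.01, 0.64, 0.06, 0.58, 0.50 and 0.15 across tumors 1 to 7. The groups did not overlap, and the means differed by -1.14. The ratio of Rbl1 to Rbl2 was higher in tumors, at 0.56 to 1.74 against -0.48 to 0.44 in normal lung. The ratio of Rbl1 to Rb1 overlapped, with means of 1.46 ± 0.18 over the normal lungs (SD, n = 5) and 1.66 ± 0.34 over the tumors (SD, n = 7).

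E2f1, the activating factor gene that marks entry into S phase, showed 357, 335, 336, 453 and 382 normalized counts across normal lungs 1 to 5. Across tumors 1 to 7 it reached 2717, 2599, 3932, 3379, 2369, 2603 and 1590. Tumor 7 was the lowest tumor and still far above the highest normal lung. The change of 2.84 log2 units (SE 0.20, adjusted p = 5.01e-08) corresponds to a 7.36-fold ratio of means, the highest of the 3 activating factor genes.

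E2f2 showed 1348, 1382, 1552, 1416 and 1168 normalized counts across normal lungs 1 to 5 and 4280, 6813, 6880, 5087, 5711, 3679 and 2703 across tumors 1 to 7. E2f3 showed 346, 290, 401, 291 and 328 across normal lungs 1 to 5 and 1221, 1499, 1149, 897, 1300, 1478 and 856 across tumors 1 to 7. Tumor 7 was lowest for both genes, and neither group of values overlapped the other. Their log2 fold changes were close, at 1.81 (SE 0.22, adjusted p = 9.52e-06) for E2f2 and 1.84 (SE 0.17, adjusted p = 1.06e-06) for E2f3.

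E2f4, whose product acts with p107 and p130 as a repressor, showed 1411, 1249, 1512, 1301 and 1242 normalized counts across normal lungs 1 to 5 and 1041, 1651, 916, 1117, 956, 984 and 1126 across tumors 1 to 7. All tumors but tumor 2 lay below the lowest normal lung, and tumor 2 lay above the highest. The log2 fold change of -0.29 (SE 0.15, 95% confidence interval -0.62 to 0.03) did not pass the threshold (adjusted p = 0.110). Without tumor 2 it passed (-0.39, adjusted p = 0.00883, with adjusted p from 0.00883 to 0.646 over the alternatives tried).

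E2f5, the closest relative of E2f4, showed 302, 356, 299, 340 and 235 normalized counts across normal lungs 1 to 5 and 196, 279, 147, 140, 280, 222 and 225 across tumors 1 to 7. Tumors 3 and 4, which share a title number, were the lowest, and tumors 2 and 5 exceeded the lowest normal lung. Its change of -0.55 log2 units (SE 0.22, adjusted p = 0.0401) passed the threshold, but the call was lost in 15 of 23 alternatives, with adjusted p from 0.0206 to 0.189 over them. It was lost on leaving out any of normal lungs 1 to 4 or tumors 1, 3, 4 and 6, where the log2 fold change ran from -0.57 to -0.46. The log2 ratio of E2f5 to E2f4 overlapped between the groups, at -2.14 ± 0.26 over the normal lungs (SD, n = 5) and -2.40 ± 0.39 over the tumors (SD, n = 7).

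**Figure D2:**
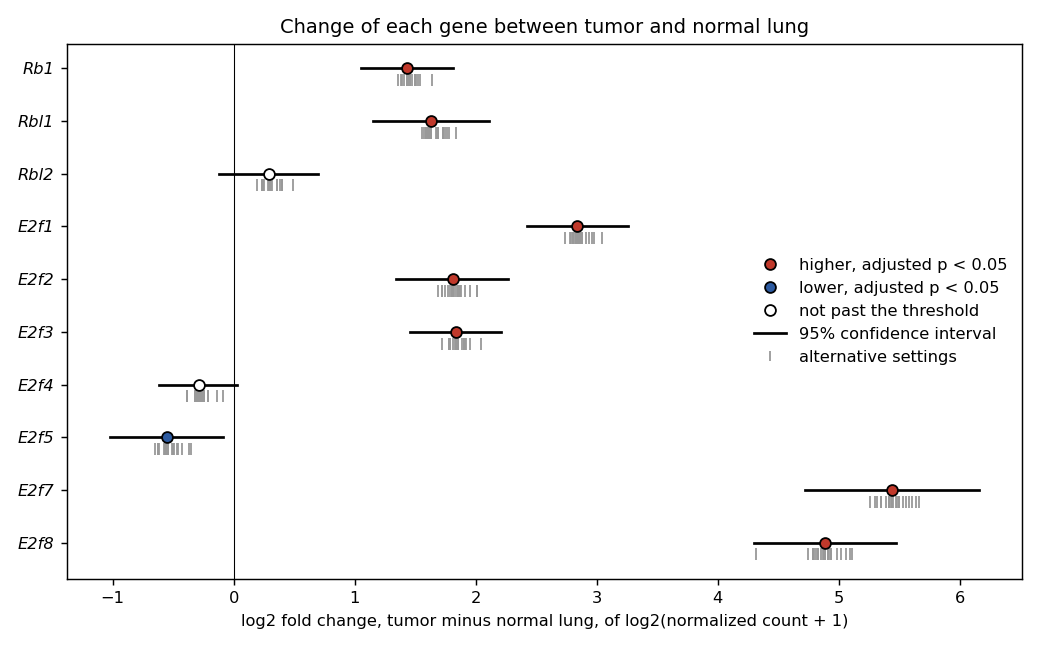
Log2 fold change of each of the 10 genes, tumor minus normal lung (horizontal axis), with its 95% confidence interval and, as grey ticks, its value under the alternative settings. E2f7 (5.44) and E2f8 (4.89) lie farthest to the right, and the intervals of Rbl2 and E2f4 include 0.

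The atypical repressor genes had the largest changes of the family. E2f7 showed 36.1, 16.1, 29.1, 14.1 and 34.5 normalized counts across normal lungs 1 to 5 and 1043, 772, 1623, 1341, 1794, 1112 and 544 across tumors 1 to 7. E2f8 showed 56.7, 40.9, 82.4, 39.5 and 42.5 across normal lungs 1 to 5 and 879, 1235, 2308, 1582, 2331, 1641 and 1225 across tumors 1 to 7. Both messages were scarce in normal lung and far higher in every tumor, with tumor 7 lowest for E2f7 and tumor 1 lowest for E2f8. The ratio of group means was 45.2 for E2f7 and 30.5 for E2f8. Their log2 fold changes were 5.44 (SE 0.33, adjusted p = 1.77e-08) and 4.89 (SE 0.27, adjusted p = 7.48e-09), which ranked 447 and 600 from the highest of 23674 genes. E2f8 shares 610 exon bases with Gm2788 on the opposite strand, which had at most 30.1 normalized counts in any sample, and E2f7 shares 86 with 1700020G17Rik, which had at most 59.8.

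The ratios of these genes to the activator E2f1 were higher in tumors, with no overlap between the groups. The log2 ratio of E2f7 to E2f1 was -4.91 to -3.27 in normal lung and -1.75 to -0.40 in tumors, and that of E2f8 to E2f1 was -3.49 to -2.01 and -1.63 to -0.02. For E2f1 relative to E2f4 the log2 ratio was -2.17 to -1.52 in normal lung and 0.50 to 2.10 in tumors. For E2f3 relative to E2f4 it was -2.16 to -1.91 and -0.39 to 0.59. These 4 ratios are given without a test, and how often ratios of other gene pairs keep apart was not counted.

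Dividing by exon length in GENCODE M21 allowed the levels of different genes to be ordered. In normal lung E2f4 was the highest, at 548 ± 47.4 normalized counts per kb (SD, n = 5), followed by E2f2 at 281 ± 28.4, E2f5 at 172 ± 26.4 and E2f1 at 118 ± 15.4. The ranges of E2f5 and E2f1 overlapped, although E2f5 was the higher in each normal lung. Rbl1 (63.9 ± 8.01), E2f3 (61.0 ± 8.42) and Rbl2 (51.5 ± 11.1) followed with overlapping ranges, above Rb1 (23.2 ± 3.75), E2f8 (9.63 ± 3.33) and E2f7 (2.88 ± 1.14), each apart from the next. In tumors the order per kb was E2f2 (1029 ± 322, SD, n = 7), E2f1 (869 ± 236), E2f4 (454 ± 102), E2f8 (294 ± 102), E2f3 (221 ± 46.9), Rbl1 (206 ± 59.0), E2f7 (131 ± 49.5), E2f5 (119 ± 31.6), Rb1 (63.0 ± 10.1) and Rbl2 (62.8 ± 11.6). Of these neighbours only E2f5 and Rb1 had ranges that did not overlap. E2f4 thus went from the most abundant E2F message per length to below E2f1 in each of the 7 tumors. The level of E2f4 itself was not called as changed, while that of E2f1 was higher in tumor.

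The makeup of the E2F messages differed between the groups. A share depends on all the E2F genes summed, so that of E2f4 and E2f5 is lower wherever the others are higher. E2f4 and E2f5 together held 60.3% ± 0.931 of the summed E2F counts per kb over the normal lungs (SD, n = 5) and 19.1% ± 5.24 over the tumors (SD, n = 7). E2f1, E2f2 and E2f3 together held 38.6% ± 1.04 in normal lung and 67.4% ± 4.89 in tumors, and E2f7 with E2f8 held 1.04% ± 0.283 and 13.6% ± 3.44. Each of these shares kept apart between the groups, and normal lungs differed little, with E2f4 and E2f5 at 59.3% to 61.4%. Among the pocket proteins Rbl2 held 37.0% ± 5.30 in normal lung and 19.4% ± 3.71 in tumors, while Rbl1 held 46.4% ± 5.27 and 61.2% ± 5.72 and Rb1 16.7% ± 0.943 and 19.4% ± 2.90. The shares of Rbl2 did not overlap between the groups, and those of Rbl1 and Rb1 did.

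**Figure D3:**
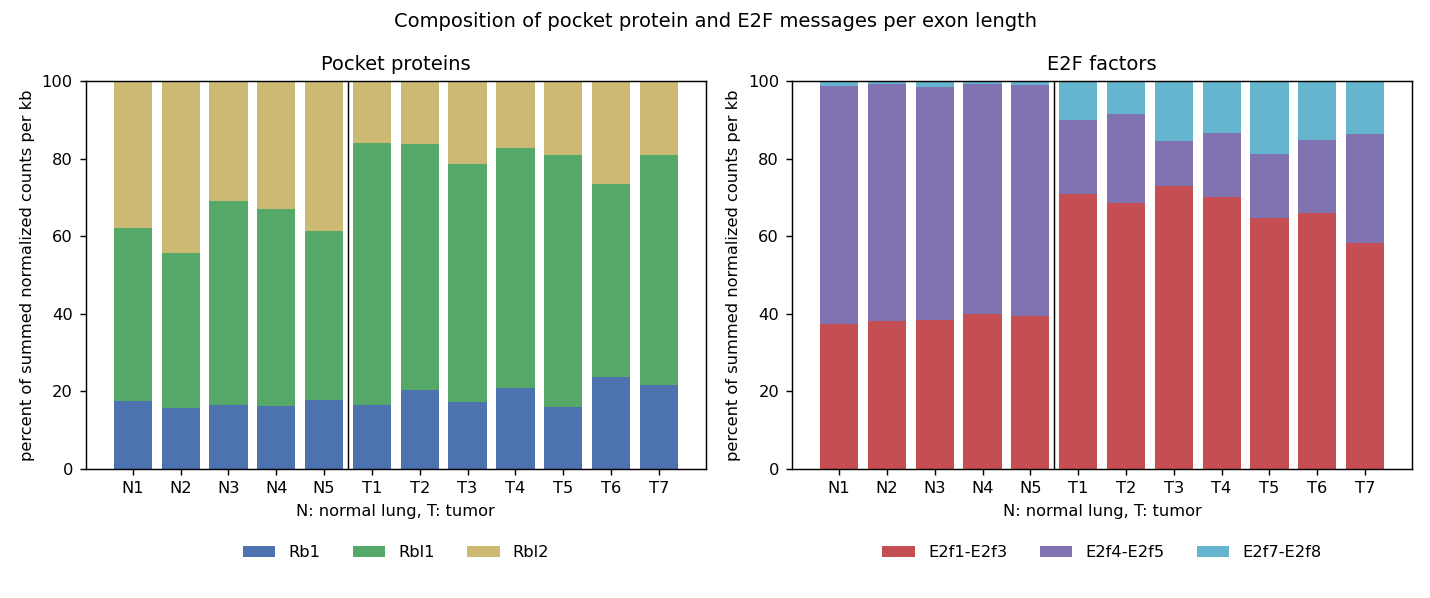
Share of summed normalized counts per kb of exon (vertical axis, percent) held by each pocket protein gene (left) and each class of E2F gene (right) in normal lungs N1 to N5 and tumors T1 to T7. The E2f4-E2f5 share is 59.3% to 61.4% in normal lung and 11.6% to 28.1% in tumors.

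E2F proteins bind letters of the form TTTCGCGC, TTTGGCGC, TTTCCCGC or TTTGCCGC, which were looked for in windows around annotated starts. A link between these letters and the changes in tumor was not tested. RefSeq windows on GRCm38.p6, running from 250 bases before to 50 after an annotated start, were at hand for 7 of the 10 genes (9 windows, with 2 each for E2f2 and E2f3), and none was used for Rb1, E2f4 and E2f5. On either strand, these letters occurred in 4 of the 9 windows, 1 each of Rbl1, E2f3, E2f2 and E2f7, against 744 of 32851 windows (2.26%) over all genes. They were not in the windows used for E2f1, E2f8 and Rbl2, which says nothing of sites elsewhere. The E2f1 window and the E2f2 window without a match open in coding sequence. Both thus lie at starts inside the gene and do not show its main promoter, although they count among the 9 windows. The windows with a match are shown to set the letters in their context: Rbl1 at chr2:157204485-157204784 (minus strand, TTTCGCGC from position -18), E2f3 at chr13:29986014-29986313 (minus strand, TTTCCCGC in reverse complement from -11), E2f2 at chr4:136172024-136172323 (plus strand, TTTGGCGC from 40) and E2f7 at chr10:110745189-110745488 (plus strand, TTTCCCGC in reverse complement from -198). Positions count from 1 at the annotated start, sequences run 5′ to 3′ on the gene's strand, and capitals mark the match.
Rbl1: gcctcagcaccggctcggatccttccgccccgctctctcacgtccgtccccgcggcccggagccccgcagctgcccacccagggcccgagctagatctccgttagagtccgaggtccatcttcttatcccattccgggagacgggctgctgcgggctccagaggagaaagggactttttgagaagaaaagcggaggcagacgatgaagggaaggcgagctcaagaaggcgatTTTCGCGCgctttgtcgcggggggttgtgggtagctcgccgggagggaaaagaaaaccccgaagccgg
E2f3: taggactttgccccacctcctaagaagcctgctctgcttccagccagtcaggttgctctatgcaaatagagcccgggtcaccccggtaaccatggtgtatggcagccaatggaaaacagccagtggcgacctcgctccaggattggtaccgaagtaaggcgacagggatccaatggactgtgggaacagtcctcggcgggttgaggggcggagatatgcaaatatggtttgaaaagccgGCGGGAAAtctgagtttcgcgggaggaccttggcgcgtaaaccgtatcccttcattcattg
E2f2: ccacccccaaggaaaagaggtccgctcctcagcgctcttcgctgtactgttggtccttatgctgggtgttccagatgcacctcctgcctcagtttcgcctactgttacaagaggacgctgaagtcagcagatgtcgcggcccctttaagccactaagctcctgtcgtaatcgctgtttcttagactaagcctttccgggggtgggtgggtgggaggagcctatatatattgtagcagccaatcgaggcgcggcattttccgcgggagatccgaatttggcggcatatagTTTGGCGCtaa
E2f7: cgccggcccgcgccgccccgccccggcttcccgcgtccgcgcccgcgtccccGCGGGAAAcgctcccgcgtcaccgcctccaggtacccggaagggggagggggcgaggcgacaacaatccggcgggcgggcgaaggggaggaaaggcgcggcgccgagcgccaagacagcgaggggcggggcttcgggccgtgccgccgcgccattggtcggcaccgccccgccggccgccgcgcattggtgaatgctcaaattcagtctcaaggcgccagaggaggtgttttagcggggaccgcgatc

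All 4 genes shown rose in tumor, by log2 fold changes of 1.63 (Rbl1) to 5.44 (E2f7). E2f1 and E2f8 rose too, and their windows held no match, that of E2f1 lying inside the gene. The matches are a description of these letters and not evidence of binding. The counts were made on GRCm39 per the submitters' processing notes, so the coordinates serve only to locate the sequences shown.

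Partners of the family were examined through lists of pathway genes. Counts of calls in these lists are to be read beside the 31.4% higher and 30.1% lower over all tested genes. Of 9 tested genes for E2F partners and for the MuvB complex, which pairs with p107 or p130 to repress and with B-Myb to activate, 7 were higher and 2 were not called (median 1.11). Tfdp1 encodes DP1, a DP partner of the kind that E2F1 to E2F6 need to bind DNA. Its values averaged 516 ± 56.0 normalized counts over the normal lungs (SD, n = 5) and 4560 ± 957 over the tumors (SD, n = 7). The log2 change of Tfdp1 was 3.12 (SE 0.17, adjusted p = 6.71e-09). Its relative Tfdp2 had 1653 ± 115 and 1843 ± 512 and was not called (0.11, adjusted p = 0.641). E2f6, a repressor that acts without pocket proteins, changed by 0.91 (SE 0.19, adjusted p = 0.00115). The largest increases of the list were those of Foxm1 (4.61, adjusted p = 1.20e-08) and Mybl2 (3.76, adjusted p = 1.27e-06), which encode the activators FOXM1 and B-Myb of late cell cycle genes. Among 11 tested genes for corepressors and other binders of the Rb protein, 7 were higher, 1 was lower and 3 were not called (median 0.50). Skp2, a ubiquitin ligase subunit, changed by 3.48 (SE 0.20) and Rbbp8 by 1.63 (SE 0.20). Psmd10 (gankyrin, which binds Rb) fell by 0.89 log2 units (SE 0.20, adjusted p = 0.00171).

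Of 10 genes for G1 cyclins, their kinases and activators, 6 were higher and 4 lower (median 1.39). Ccna2 (4.23, SE 0.29) and Ccne1 (4.12, SE 0.22), cyclins that drive Cdk2, had the largest increases. Cdk4, a kinase partner of the D-type cyclins, was also higher, at 1624 to 2615 normalized counts in tumors and 883 to 1378 in normal lung (1.08, SE 0.15, adjusted p = 3.12e-05). The 4 lower genes were the D-type cyclins Ccnd1 (-4.65, SE 0.39), Ccnd2 (-4.62, SE 0.72) and Ccnd3 (-1.67, SE 0.39) and Cdk6 (-2.27, SE 0.68), the other kinase of D-type cyclins. Cdk4, Ccnd3 and Cdk6 were named after their values were seen. Ccnd1 had 2222 to 2396 normalized counts in normal lung against 39.2 to 243 in tumors, so that every tumor was far below every normal lung. Ccnd3 overlapped, with tumor 7 at 3934 against 2683 to 4549 in normal lung. Cdk6 overlapped too, with tumor 1 at 3245, above the 1450 to 2220 of normal lungs. The fold change of Ccnd2 was smaller in edgeR (-3.33, adjusted p = 0.00117) and in DESeq2 (-3.43, adjusted p = 1.50e-07). The call of Cdk6 was lost in edgeR (-1.01, adjusted p = 0.285), in DESeq2 (-1.10, adjusted p = 0.186) and when Y-linked expression entered the fit (-1.21, adjusted p = 0.228). Endothelial, epithelial and leukocyte markers were lower in the tumors as a group, as given above. This did not hold in each tumor. Ptprc, Cd3e and Cd68 in tumor 7 and the endothelial gene Vwf in tumor 1 were not below normal lung. A link between these markers and the cyclin levels was not tested.

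Of 7 Cdk inhibitor genes, 6 were higher and 1 lower (median 1.71). Cdkn2a, which encodes the Cdk4 and Cdk6 inhibitor p16INK4A and the p53 activator p19ARF, had 27.6 to 58.1 normalized counts in normal lung and 1479 to 2664 in tumors, which gave a log2 change of 5.59 (SE 0.22, adjusted p = 4.91e-10). Cdkn2c (p18INK4C) changed by 2.80 (SE 0.23), whereas Cdkn2b (p15INK4B), next to Cdkn2a in the genome, fell by 2.91 log2 units (SE 0.36, adjusted p = 1.22e-05). Reads of Cdkn2a do not separate its transcripts.

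Target genes moved together. All 23 tested G1/S targets of E2F were higher in tumor (median 3.26, from 1.35 to 4.96), led by Uhrf1 (4.96, SE 0.23), which maintains DNA methylation at replication, and Rrm2 (4.82, SE 0.50), a ribonucleotide reductase subunit. All 15 G2/M targets of MuvB and FOXM1 were higher (median 4.27, from 2.96 to 5.68), led by Cdk1 (5.68, SE 0.32) and Ccnb1 (5.53, SE 0.41), which form the mitotic kinase. Every gene of both lists had all tumors above all normal lungs, where 20.1% of tested genes did. Summed normalized counts of the G2/M list lay between 1176 and 2894 in normal lung and between 23849 and 56882 in tumors, so the rise of the E2F genes went along with markers of dividing cells. A larger share of dividing cells and a higher level per cell cannot be told apart here.

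**Figure D4:**
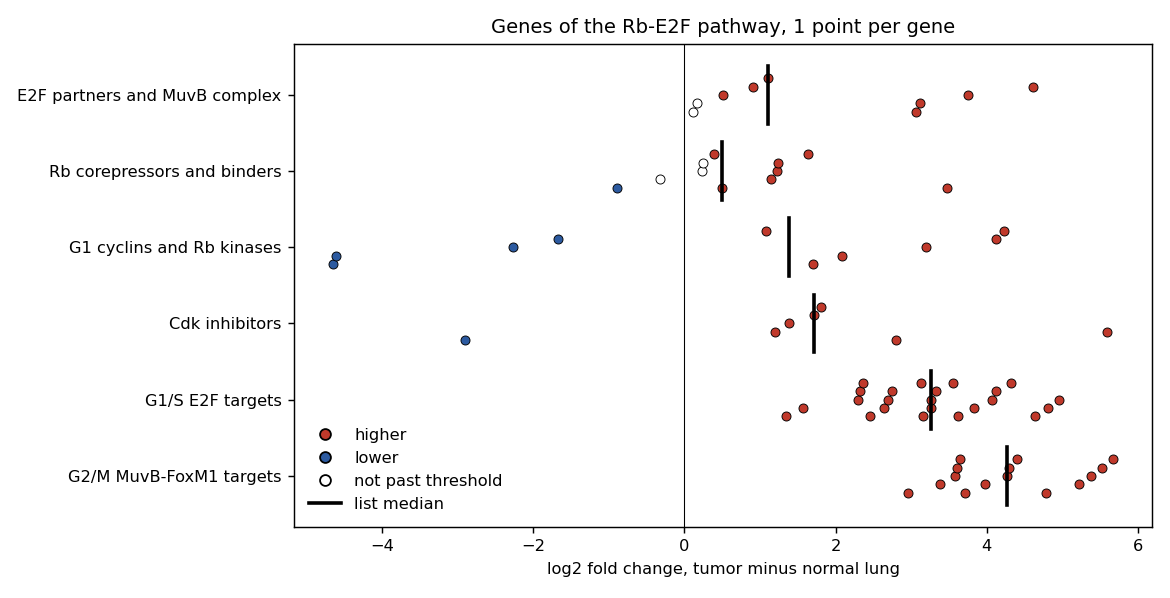
Log2 fold change, tumor minus normal lung (horizontal axis), of each tested gene in 6 lists of the pathway, 1 point per gene colored by call, with a bar at each list's median. All points of the G1/S and G2/M lists lie to the right of 0, and 4 of 10 G1 cyclin and kinase genes lie to the left.

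The tumors differed among themselves, and tumor 7 was lowest for 6 of the 10 genes, Rb1, Rbl2, E2f1, E2f2, E2f3 and E2f7. It also had the lowest G2/M sum (23849), the lowest neuroendocrine sum (28857) and the highest leukocyte sum (10717) of the tumors, and its cardiac muscle sum of 30427 was far above the 305 to 3897 of normal lungs and the 395 to 2190 of other tumors. Their part in its low values was not tested, and without tumor 7 the same counts of 7 higher genes and 1 lower gene were obtained. The spread was widest for E2f7, 3.30-fold from the lowest to the highest tumor, and narrowest for Rb1, at 1.62-fold. Tumors 3 and 4, which share a title number, differed by 1.04-fold for Rbl1 and by 1.46-fold for E2f8, the smallest and largest of the 10 genes. Tumors 5, 6 and 7, which share another, spread from 1.18-fold for E2f4 to 3.30-fold for E2f7, with 2.20-fold for Rbl1. The sets differ in size, and the latter holds tumor 7, so their spreads do not compare directly. Tumors 1 and 7, titled with the word for trachea, were the lowest for E2f8 and E2f7 respectively, but tumor 1 was the highest for Rbl1.

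**Figure D5:**
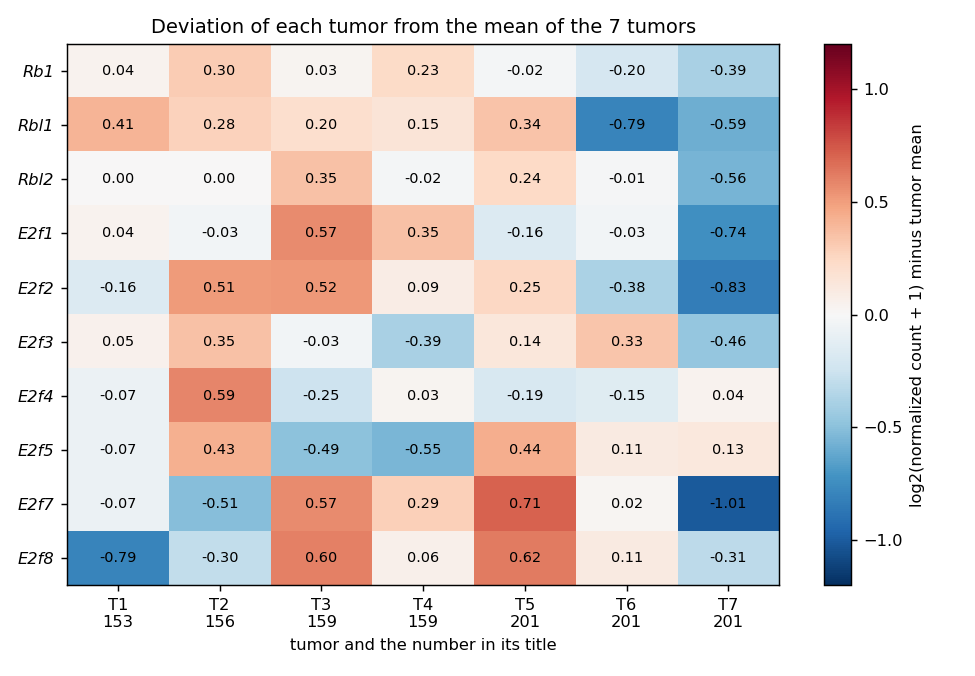
Deviation of each tumor from the mean of the 7 tumors, on the log2(normalized count + 1) scale, for the 10 genes (rows) and tumors T1 to T7 with their title numbers (columns). Tumor 7 is low in most rows (-1.01 for E2f7), tumors 6 and 7 are low for Rbl1 (-0.79 and -0.59), and tumor 2 is high for E2f4 (0.59).

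Genes with the most similar profile were sought for each member among 16518 genes, by the root-mean-square difference of log2 values over the 12 samples after centring each gene on its own mean. The nearest to Rb1 was Sugp2 (difference 0.120 log2 units), to Rbl1 Cd276 (0.207) and to Rbl2 Arid4b (0.124). The nearest to E2f1 was Tubg1 (0.187), followed by the replication factor C subunits Rfc3 (0.194) and Rfc5 (0.205). The nearest to E2f7 were Nlgn3 (0.204) and Neil3 (0.236), and to E2f8 Mxd3 (0.238), followed by Pimreg (0.289) and Top2a (0.290). For E2f2, E2f3, E2f4 and E2f5 they were Rps15a (0.153), Zfp239 (0.189), Heatr1 (0.120) and Lins1 (0.136). This is a description over samples that fall into separate groups by tissue, and carries no test.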

How the data were processed

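The data were 5 normal lung and 7 tumor samples of poly-A RNA. The authors deposited a signal per gene, reads divided by a size factor per sample. The submitters' processing notes name featureCounts, DESeq2 and GRCm39, and the aligner, annotation and use of strand are not given in the sources used here. All 280879 values above 0 in the 12 samples (100%) lay within 0.05 reads of a whole multiple of the sample's lowest value, taken as 1 read, which gave back the reads in each sample (11126432 to 24217633). Genes averaging 1 or more entered limma 3.58.1 in R 4.3.3 as log2(value + 1) (lmFit, eBayes with trend), with Benjamini-Hochberg adjustment over 23674 genes. Fold changes on this scale understate those of low genes. Count tests with edgeR 4.0.16 and DESeq2 1.42.0 used the recovered reads of 11 samples, leaving out tumor 3, whose size factor is so close to 1 that its low values, taken alone, were not accepted as showing whole reads, and called 6384 and 6316 genes higher and 4821 and 5329 lower, against 7430 and 7124 in limma. Symbols and exon lengths came from GENCODE M21 (GRCm38), which named 29982 of 30399 identifiers. The limma fit was run on simulated independent samples with far fewer changed genes than called here. That run cannot check scaling under such wide change or samples that share an animal. Members and lists were chosen with earlier results of these data known. From each pathway list the 2 largest called changes in each direction and the direct partners of members are named. Lin54, Cdt1, Tk1, Itgam, Alas2 and Actc1 were not analysed here, and Suv39h1 had a mean under 1. Alternatives covered the pseudocount, filters, scaling, count tests, title numbers, trachea-titled tumors, Y-linked expression and each sample left out in turn. Ratios, levels per length, shares, profile likeness and motifs are descriptions without a test. Non-overlap of ratios and shares was not set against that of other genes. Summaries used Python 3.11.15 with pandas 2.3.3.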

Additional observations from a re-analysis of the deposited data

Results flagged for a closer look

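For each of the 10 genes and 8 ratios, the highest and lowest sample were set against the rest of their group by Dixon's ratio at its 95% limit, in 36 comparisons of which 1.8 would be expected to pass by chance. In 3 a sample stood apart. Rbl2 in tumor 7 had a log2 value of 8.31, below the 8.85 to 9.22 of the other tumors. E2f4 in tumor 2 had a log2 value of 10.69, above the 9.84 to 10.14 of the others. The log2 ratio of E2f7 to E2f1 in tumor 5 was -0.40, against -1.75 to -1.23 in the others.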

How the results depend on the processing

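The counts of calls and the fold changes of the 10 genes and of the pathway and overlapping genes given with a fold change were recomputed under 23 alternatives, and the 8 ratios under 13 (the pseudocount and each sample left out). Shares, levels per length and profile likeness were not recomputed. The 7 genes higher in tumor (Rb1, Rbl1, E2f1, E2f2, E2f3, E2f7 and E2f8) kept direction and call in all of them, with 8 higher under equal totals, where Rbl2 was added. The count of lower genes, 1 in the reported fit, was 0 under equal totals, quantile normalization, edgeR, DESeq2, averaging of same-numbered tumors, the Y-linked covariate and without trachea-titled tumors. Leaving out 1 sample at a time gave 0 to 2. The cause was not tested. Counts over all genes ran from 5874 to 8617 higher and from 4821 to 7574 lower, and no direction of these genes or ratios was reversed. Without trachea-titled tumors Cdk6 changed by -3.18, and with the Y-linked covariate Ccnb1 changed by 4.85. Y-linked levels were high in 4 of 5 normal lungs and 1 of 7 tumors, so Y-linked level and tissue are partly confounded. Whether these levels reflect the sex of the animals was not tested. With that covariate E2f8 changed by 4.32. No paired analysis was possible because replicate numbers were given in accession order and tie no normal lung to a tumor. With the title number as a block in limma (consensus correlation 0.304), 7 genes of the family were higher and 1 lower. Depth limits E2f7 most, with 10 to 30 reads per normal lung.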

Other observations

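A pair of single-tumor values of pathway genes was singled out after the values were seen. Cdk6, lower in tumors as a group, had 3245 normalized counts in tumor 1, above the 1450 to 2220 of normal lungs, and 96.5 to 980 in the other 6 tumors. Rrm2 had 529 normalized counts in tumor 2 and 2084 to 5076 in the other 6 tumors, although tumor 2 had the highest Cdk1 (4081) and Foxm1 (5497) of the tumors.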
